A study of Homo sapiens with 18 samples.

Results

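The aminoacyl-tRNA synthetases were examined in RNA-seq libraries of pancreatic cancer cells after knockdown of OFD1, a protein of the centriole and of centriolar satellites. The genes were chosen by symbol alone: a letter followed by ARS with an optional 1 or 2, together with EPRS1, FARSA and FARSB. Described here are 35 such genes of the 26668 gene symbols, of which the 16 that end in 2 were taken as mitochondrial and the other 19 as cytosolic or dual. EARS2 and PARS2 have no cytosolic gene of their own letter in this set, because the cytosolic enzyme EPRS1 charges both glutamate and proline. KARS1 and GARS1 are known to serve both compartments, and QARS1, the cytosolic glutaminyl-tRNA synthetase, has no mitochondrial counterpart. 

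Libraries numbered 18, from 3 controls and 3 knockdowns of OFD1 in each of 3 established human lines of pancreatic cancer (PATU8988T, PANC1 and MIA PaCa-2). Knockdown cells carried a doxycycline-inducible OFD1 shRNA (Tet-on-shOFD1) delivered by lentivirus and were given doxycycline for 72 h. The control titles name shControl and no treatment, whereas the study's methods describe the same Tet-on-shOFD1 cells given DMSO, and the series text sets day 0 against day 3. The shRNA, the drug and the time in culture therefore cannot be told apart in these libraries, and no library of cells without the OFD1 shRNA but with doxycycline was among them. Doxycycline is a tetracycline, a class of antibiotic that is known to act on mitochondrial as well as bacterial ribosomes. No genotype beyond the shRNA is given, and whether each line was a clone or a pool was not given in the sources used here.

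Each aminoacyl-tRNA synthetase joins an amino acid to the tRNAs that carry its codons, and the charged tRNA then goes to the ribosome. Cytosolic and mitochondrial ribosomes use separate tRNAs, so most amino acids have a nuclear gene for each compartment. Cytosolic synthetase genes are among the known targets of ATF4, a transcription factor whose mRNA is translated when eIF2 is phosphorylated, as happens in amino acid starvation and in endoplasmic reticulum or mitochondrial stress. Part of the cytosolic enzymes sits in a multi-tRNA synthetase complex held together by the scaffold proteins AIMP1, AIMP2 and EEF1E1.

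ATF4 binds with C/EBP partners to a composite element, and the cytosolic synthetase promoters that hold it are shown here because ATF4-listed members are the group that the values below describe at most length. RefSeq promoter windows (GRCh38.p14), from 250 bases before to 50 bases after a gene's start, were found for 30 of the 35 members, 16 cytosolic and 14 mitochondrial. The letters TGATGNAA, read on both strands, were present in windows of 7 of the 16 cytosolic genes and of 1 of the 14 mitochondrial genes, against 4.46% of all 27305 genes and 3.62% of all 35116 windows. The stricter form TGATGCAA, which is contained in the first, was present in 6 of 16 and 0 of 14 genes, against 1.08% of all genes and 0.866% of all windows. Each sequence below is 30 bases, 5′ to 3′ on the strand of the gene, with the match in capitals.
GARS1, chr7:30594834-30594863, plus strand: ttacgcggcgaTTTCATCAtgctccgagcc
CARS1, chr11:3057407-3057436, minus strand: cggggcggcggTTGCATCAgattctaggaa
IARS1, chr9:92293692-92293721, minus strand: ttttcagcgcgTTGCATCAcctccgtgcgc
MARS1, chr12:57488053-57488082, plus strand: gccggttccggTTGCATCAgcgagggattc
AARS1, chr16:70289675-70289704, minus strand: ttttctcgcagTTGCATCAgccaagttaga
NARS1, chr18:57621804-57621833, minus strand: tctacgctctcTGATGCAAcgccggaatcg
TARS1, chr5:33440956-33440985, plus strand: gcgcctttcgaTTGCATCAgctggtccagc
YARS2, chr12:32756076-32756105, minus strand: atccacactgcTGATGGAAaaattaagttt
A match says that these letters are in the window, and no binding was measured here. Positions count from the start that RefSeq's promoter table uses for a window, which in GARS1 and TARS1 lies inside the gene interval of the annotation and not at its first base. The match lay between positions -33 and 22 in GARS1, CARS1, IARS1, MARS1, NARS1 and TARS1, and began at positions -187 and -197 in AARS1 and YARS2.

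Values were FPKM, the reads of a gene divided by gene length and by library size. Between 32246761 and 39522270 reads per library were recovered from the FPKM steps, and the synthetases had 89 to 29075 reads per gene and library. All 35 averaged 1 FPKM or more in each line and were tested. OFD1 itself fell by 1.07, 0.61 and 1.10 on the log2 scale in PANC1, MIA PaCa-2 and PATU8988T. Control replicate 2 of MIA PaCa-2 stood apart from the other 2 controls of that line, and the counts of called genes in each list of this line are given with and without it. The source labels of PATU8988T replicates 2 and 3 name other lines than the titles, and the titles were followed.

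KRT8 and KRT18, keratins of simple epithelia, averaged at least 333 FPKM in the controls of every line. EPCAM and CDH1 averaged 0.0330 and 0.00175 FPKM in the MIA PaCa-2 controls, and KRT19 averaged 0.00647 FPKM in the PATU8988T controls, so these epithelial markers were nearly absent there. All 3 acinar markers (PRSS1, CPA1, CELA3A) were at 0 in MIA PaCa-2 and PATU8988T, and in PANC1 their sum was at most 1.05 FPKM. Endothelial markers summed to at most 0.233 FPKM in every library. The 4 leukocyte markers summed to 49.3 to 67.4 FPKM in the MIA PaCa-2 controls and to 73.2 to 77.0 FPKM in the knockdown libraries, nearly all of it CD68, with CD3E at 0 and PTPRC at 3.51 and 6.002 FPKM on average. The same sum went from 32.0 to 37.8 FPKM in the PANC1 controls to 17.0 to 19.6 FPKM with knockdown, and in PATU8988T from 13.6 to 13.9 FPKM to 9.77 to 11.7 FPKM. Of the 5 fibroblast markers only COL1A2 in MIA PaCa-2 and COL1A1 in PANC1 reached 1 FPKM. COL1A2 averaged 162 FPKM in the MIA PaCa-2 controls and 205 FPKM with knockdown. COL1A1 averaged 26.1 FPKM in the PANC1 controls and 22.3 FPKM with knockdown. The part of these markers in the synthetase results was not tested.

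Cytosolic synthetase mRNAs had the higher levels per length. Mean FPKM in PANC1 controls ran from 10.9 for FARSB to 201 for GARS1 among the 19 cytosolic genes, and from 1.63 for FARS2 to 64.9 for IARS2 among the 16 mitochondrial genes. IARS2, the mitochondrial isoleucyl-tRNA synthetase, had the highest control mean of its class in each line, at 74.0 FPKM in MIA PaCa-2 and 85.3 FPKM in PATU8988T. The highest cytosolic mean belonged to WARS1 in MIA PaCa-2 (199 ± 12.8 FPKM, SD, n = 3) and to TARS1 in PATU8988T (153 ± 1.43 FPKM, SD, n = 3). Over 13 amino acids with a single separate gene for each compartment (phenylalanine not included), the control level of the cytosolic gene was a median of 8.11, 6.23 and 4.97 times that of the mitochondrial gene in PANC1, MIA PaCa-2 and PATU8988T, on the FPKM scale. Levels were read within a line only.

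The cytosolic genes took a larger share of all FPKM in every knockdown library than in any control of the same line. Their summed share was 0.488% to 0.496% in the PANC1 controls and 0.539% to 0.544% with knockdown. In MIA PaCa-2 it was 0.385% to 0.398% and then 0.444% to 0.451%, and in PATU8988T 0.295% to 0.296% and then 0.328% to 0.337%. The mitochondrial share was lower in every knockdown library of PANC1 (0.0635% to 0.0643%, against 0.0693% to 0.0709%) and of MIA PaCa-2 (0.05005% to 0.0523%, against 0.0598% to 0.0614%), and the groups overlapped in PATU8988T (0.0638% to 0.0655% with knockdown, against 0.0630% to 0.0640%). A summed share follows the most abundant genes. In PANC1 the mitochondrial sum was 240 to 246 FPKM in the controls and 231 to 233 FPKM with knockdown. The 2 mitochondrial genes with the highest levels there, IARS2 and SARS2, went from means of 64.9 to 51.4 and of 45.2 to 37.5 FPKM. The log2 fold changes of the 16 mitochondrial genes in PANC1 had a median of 0.076, and 9 were above 0. In these bulk libraries, a change in the number of cells that make an mRNA and a change in the mRNA per cell cannot be told apart.

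**Figure D1:**
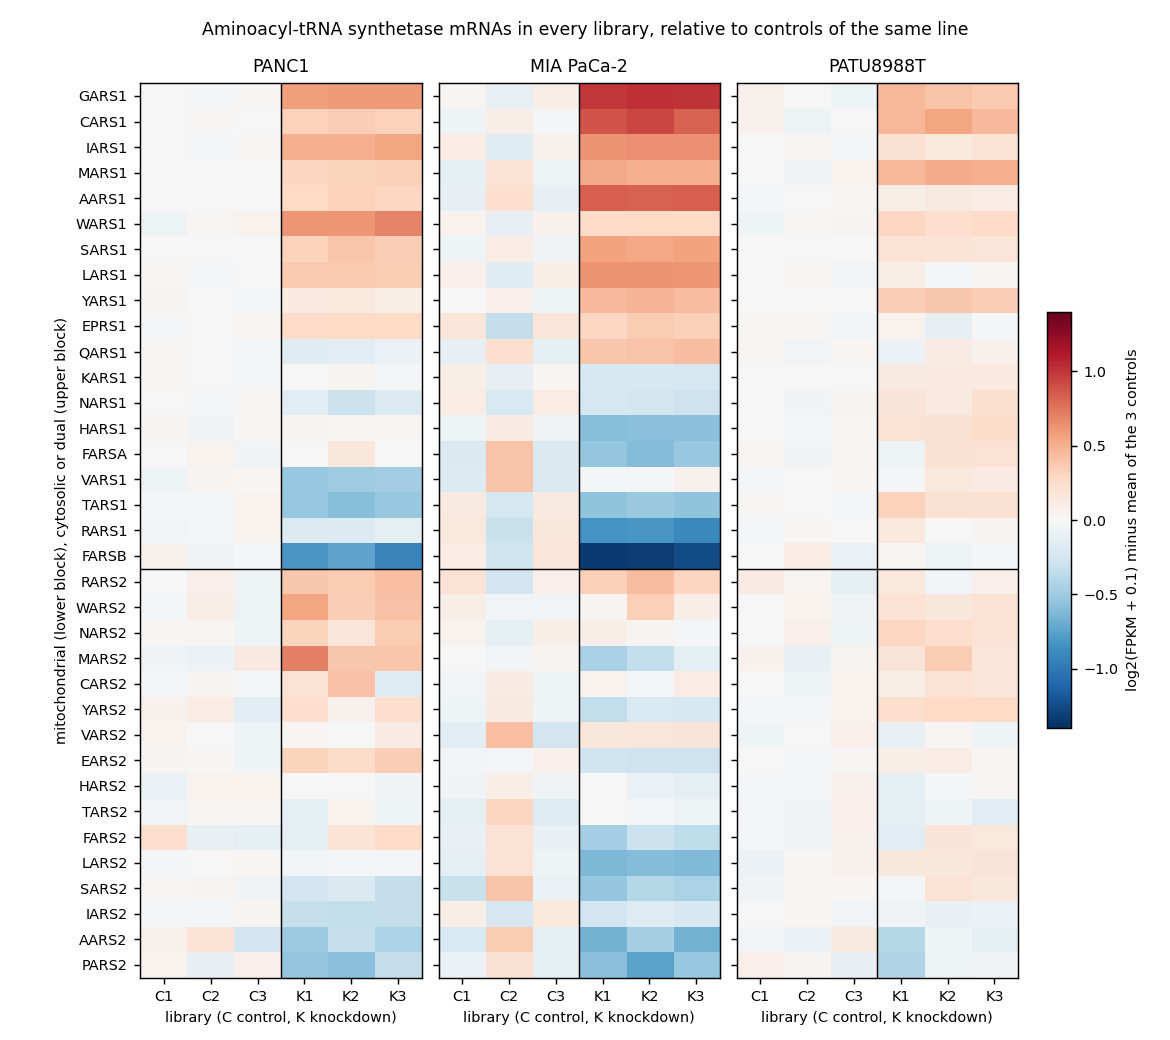
Log2(FPKM + 0.1) of the 35 synthetases (rows; cytosolic or dual above the line, mitochondrial below) in each of the 18 libraries (columns), minus the mean of the 3 controls of the same line. Red is higher and blue is lower than the controls; GARS1, CARS1 and IARS1 at the top are red in all 9 knockdown libraries, FARSB and RARS1 are blue in those of PANC1 and MIA PaCa-2, and control replicate 2 of MIA PaCa-2 differs from controls 1 and 3.

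Changes were tested within each line with limma on log2(FPKM + 0.1), with Benjamini-Hochberg adjustment over all genes of the line. A gene is said to have risen or fallen where its adjusted p was below 0.05, and to be past the study's threshold where, in addition, its fold change was above 2 or below 0.5. Log2 fold changes are knockdown minus control and are given ± SE. In the plot of changes, most synthetases lay well inside the 2-fold lines.

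In PANC1, 10 of the 19 cytosolic synthetases rose and 6 fell, against 40.1% of 10902 genes tested that rose and 32.2% that fell. The share of cytosolic members that rose or fell was thus near that of all genes. Of the 16 mitochondrial synthetases 5 rose and 4 fell. The median log2 fold change was 0.13 for the cytosolic and 0.076 for the mitochondrial members, beside 0.06 for all genes. None of the 35 was past the threshold, where 1.75% of all genes were in the higher and 4.84% in the lower direction.

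MIA PaCa-2 had the widest spread of changes among the cytosolic members, from -1.31 for FARSB to 1.01 for GARS1. Here 10 cytosolic synthetases rose and 6 fell, against 18.7% of 10758 genes that rose and 21.7% that fell. Among the 16 mitochondrial genes 0 rose and 5 fell. The medians were 0.33 for cytosolic and -0.24 for mitochondrial members, beside -0.03 for all genes. GARS1 rose and FARSB fell past the threshold, where 4.07% and 3.68% of genes were past it in the higher and lower direction. Without control replicate 2, 12 cytosolic members rose and 7 fell, 3 mitochondrial members rose and 9 fell, and 3780 and 4302 of all genes did so. These all-gene counts also belong beside every later count of this line without that replicate. The calls of EARS2, KARS1, QARS1 and YARS2 were lost without control replicate 1 or without control replicate 3, and these together with AARS2, FARSA and WARS1 were lost when any 1 of the knockdown replicates was left out (PARS2 also without knockdown replicate 2), which left 13 to 18 of the 35 members called.

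PATU8988T showed the smallest changes, with log2 fold changes of the 35 members between -0.19 and 0.50. In this line 12 cytosolic synthetases rose and 0 fell, against 20.9% of 10698 genes that rose and 18.5% that fell, and 6 mitochondrial synthetases rose and none fell. The medians were 0.18 and 0.064, beside 0.03 for all genes. None of the 35 was past the threshold, where 0.159% and 0.841% of all genes were in the higher and lower direction. The calls of AARS1, CARS2, LARS2, MARS2, NARS1 and WARS2 were lost without control replicate 2 or without knockdown replicate 3, which left 12 members called in each case. Other single libraries also decided some of these calls, with 13 members called without control replicate 1 and 15 without control replicate 3.

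**Figure D2:**
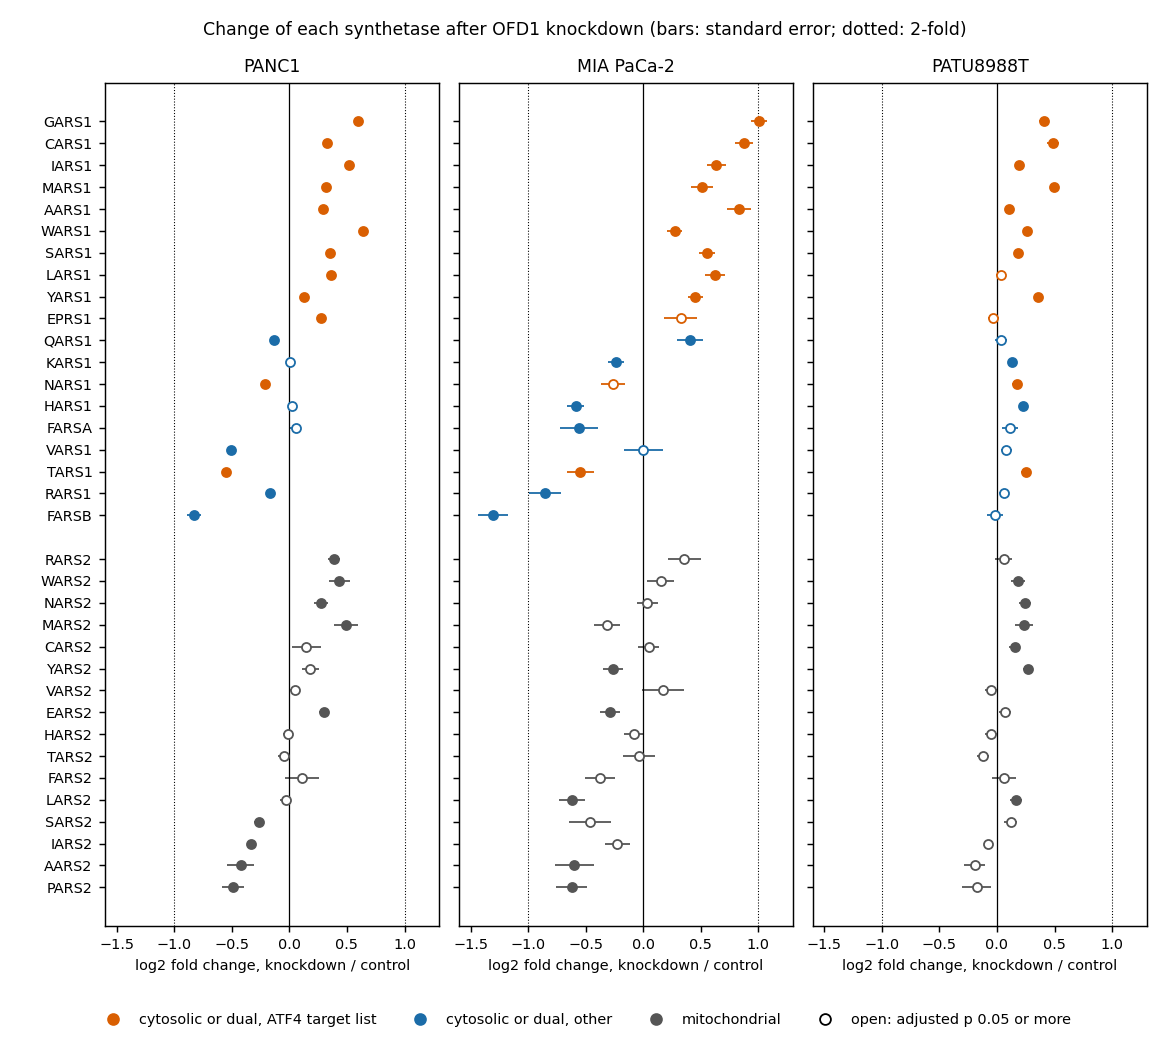
Log2 fold change (knockdown over control, horizontal axis) of each synthetase in the 3 lines, with bars for the SE and filled points for an adjusted p below 0.05. Members of the ATF4 target list (orange) lie to the right of 0 except NARS1 and TARS1 in PANC1 and MIA PaCa-2 and EPRS1 in PATU8988T; dotted lines mark a 2-fold change.

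The 12 cytosolic synthetases commonly listed as ATF4 targets (AARS1, CARS1, EPRS1, GARS1, IARS1, LARS1, MARS1, NARS1, SARS1, TARS1, WARS1, YARS1) mostly rose. In PANC1 10 rose and 2 fell, in MIA PaCa-2 9 rose and 1 fell, and in PATU8988T 10 rose and none fell. Beside these counts, 40.1%, 18.7% and 20.9% of all genes rose and 32.2%, 21.7% and 18.5% fell in the same lines. Their median log2 fold changes were 0.32, 0.53 and 0.22. The other 7 cytosolic members (FARSA, FARSB, HARS1, KARS1, QARS1, RARS1, VARS1) had medians of -0.14, -0.56 and 0.081, and of these 0 rose and 4 fell in PANC1, 1 rose and 5 fell in MIA PaCa-2, and 2 rose and 0 fell in PATU8988T. A total of 8 members rose in all 3 lines (AARS1, CARS1, GARS1, IARS1, MARS1, SARS1, WARS1 and YARS1), and each of them is on the ATF4 list. That list holds 12 of the 19 cytosolic members and was chosen with earlier results of these data known. The share of all genes that rose in all 3 lines is not given here. AARS1 in PATU8988T was called in 6 of 14 alternatives, and was lost under both other scalings, without the variance trend, with a replicate block (samples paired by number), and without any control replicate or knockdown replicate 3. WARS1 in MIA PaCa-2 was called in 10 of 14 and was lost with the replicate block and without any 1 of the knockdown replicates. Without MIA PaCa-2 control replicate 2, 10 members of the list rose and 2 fell in that line, and 2 of the other 7 rose and 5 fell.

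GARS1, glycyl-tRNA synthetase, lies at chr7:30594735-30634033 (GRCh38) and headed the cytosolic members when ordered by the mean log2 fold change of the 3 lines. GARS1 in PANC1 measured 202, 197 and 203 FPKM in the controls and 302, 305 and 304 FPKM in the knockdown libraries, a log2 fold change of 0.60 ± 0.02 (adjusted p = 3.33e-09). GARS1 in MIA PaCa-2 went from 142, 129.7 and 148 FPKM to 278, 284 and 281 FPKM, a change of 1.01 ± 0.07 (adjusted p = 0.000202) on the log2 scale. Control replicate 2 was the lowest library of the gene in this line, and every knockdown library was about 2 times the controls. GARS1 in PATU8988T held 52.8, 50.5 and 48.7 FPKM in controls and 69.8, 66.7 and 65.1 FPKM with knockdown, a change of 0.41 ± 0.04 (adjusted p = 0.000112). The groups did not overlap in any line. The MIA PaCa-2 value sat at the 2-fold line, at 0.95 without control replicate 2 and just inside 2-fold without knockdown replicate 2.

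CARS1, cysteinyl-tRNA synthetase, followed GARS1 in MIA PaCa-2. CARS1 in MIA PaCa-2 measured 19.98, 22.0 and 20.7 FPKM in the controls and 38.6, 39.9 and 37.0 FPKM with knockdown (log2 fold change 0.88 ± 0.08, adjusted p = 0.000472), and under quantile scaling it too was past the threshold. CARS1 in PATU8988T went from 21.6, 19.7 and 20.7 FPKM to 28.4, 30.3 and 28.3 FPKM (log2 fold change 0.49 ± 0.05, adjusted p = 8.16e-05). In PANC1 its change was 0.33 ± 0.02. No knockdown library overlapped a control in these comparisons.

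AARS1 charges alanine. AARS1 in MIA PaCa-2 measured 99.0, 126 and 98.8 FPKM in controls and 192, 191 and 192 FPKM with knockdown, a change of 0.84 ± 0.10 (adjusted p = 0.00149). Control replicate 2 was the highest of the controls and still below each knockdown library. AARS1 in PATU8988T moved from 98.5, 98.8 and 101 FPKM to 105, 108 and 107 FPKM (log2 fold change 0.10 ± 0.03, adjusted p = 0.0308), and in PANC1 its change was 0.30 ± 0.02. The groups did not overlap in any of the lines.

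WARS1, tryptophanyl-tRNA synthetase, is also known as an interferon-induced gene. WARS1 in PANC1 rose from 47.5, 50.3 and 51.5 FPKM to 76.3, 76.7 and 80.3 FPKM, a change of 0.64 ± 0.04 (adjusted p = 1.33e-07), the largest rise of any member in that line. Its changes in MIA PaCa-2 and PATU8988T were 0.27 ± 0.07 and 0.26 ± 0.04. IARS1, which charges isoleucine, measured 87.9, 86.9 and 89.4 FPKM in the PANC1 controls and 124, 125 and 129 FPKM with knockdown (log2 fold change 0.52 ± 0.03, adjusted p = 5.03e-08), and its changes in the other 2 lines were 0.64 ± 0.09 and 0.19 ± 0.03. MARS1, the methionyl-tRNA synthetase that supplies initiator as well as elongator tRNA, was the most changed member in PATU8988T, with 59.9, 57.5 and 61.5 FPKM in controls and 82.1, 85.6 and 84.8 FPKM with knockdown (log2 fold change 0.50 ± 0.04, adjusted p = 1.67e-05).

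SARS1 and YARS1, for serine and tyrosine, rose in each line, by 0.35, 0.56 and 0.19 and by 0.13, 0.45 and 0.35 on the log2 scale in PANC1, MIA PaCa-2 and PATU8988T. LARS1, leucyl-tRNA synthetase and a known leucine sensor of the mTORC1 pathway, rose in PANC1 (0.36) and MIA PaCa-2 (0.62), while its value in PATU8988T was 0.03. EPRS1 rose in PANC1 (0.27), and its values of 0.33 in MIA PaCa-2 and -0.03 in PATU8988T did not pass the test. EPRS1 passed in MIA PaCa-2 once control replicate 2 was left out.

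TARS1 and NARS1 are on the ATF4 list, hold the composite element in the windows shown above, and moved in opposite directions between lines. TARS1, threonyl-tRNA synthetase, fell in PANC1 from 117, 116 and 123 FPKM to 81.9, 78.5 and 81.6 FPKM, a change of -0.55 ± 0.03 (adjusted p = 1.02e-07). It fell in MIA PaCa-2 from 68.6, 53.0 and 68.6 FPKM to 42.6, 44.0 and 42.7 FPKM, a change of -0.55 ± 0.11 (adjusted p = 0.0102). In PATU8988T it rose from 155, 153 and 152 FPKM to 192, 178 and 178 FPKM, a change of 0.25 ± 0.04 (adjusted p = 0.00103). The groups did not overlap in any of the 3 lines, and the PANC1 and MIA PaCa-2 effects each differed from that of PATU8988T, by -0.80 ± 0.10 (adjusted p = 2.05e-05) and -0.79 ± 0.10 (adjusted p = 1.15e-05).

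NARS1, asparaginyl-tRNA synthetase, measured 125, 124 and 126 FPKM in the PANC1 controls and 113, 101 and 109.7 FPKM with knockdown, and it fell (log2 fold change -0.21 ± 0.04, adjusted p = 0.000432). NARS1 in MIA PaCa-2 read 133, 106 and 133 FPKM and then 104, 103 and 101 FPKM, with a change of -0.26 ± 0.10 (adjusted p = 0.0779) that passed only without control replicate 2. NARS1 in PATU8988T rose from 24.0, 23.1 and 24.5 FPKM to 27.0, 26.0 and 27.8 FPKM (log2 fold change 0.18 ± 0.04, adjusted p = 0.0106), a call that was lost without control replicate 2 or knockdown replicate 3. All 3 knockdown libraries were below the controls in PANC1 and MIA PaCa-2 and above them in PATU8988T.

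**Figure D3:**
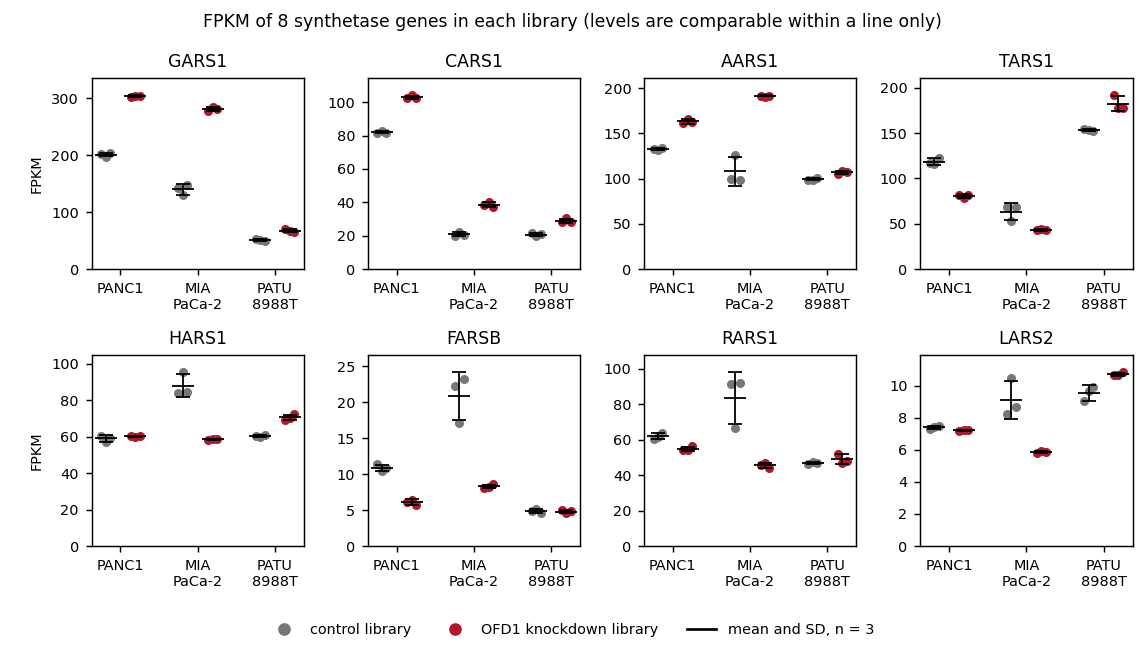
FPKM (vertical axis, starting at 0) of 8 synthetases in each control (grey) and OFD1 knockdown library (red) of the 3 lines, with the mean and SD of 3 libraries in black. GARS1, CARS1 and AARS1 are higher with knockdown in each line, TARS1 is lower in PANC1 and MIA PaCa-2 and higher in PATU8988T, FARSB and RARS1 are lower in PANC1 and MIA PaCa-2, and HARS1 is lower in MIA PaCa-2 and higher in PATU8988T.

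FARSB encodes the beta subunit of cytosolic phenylalanyl-tRNA synthetase (chr2:222566899-222656092, GRCh38) and FARSA the alpha subunit. FARSB in MIA PaCa-2 fell from 22.2, 17.1 and 23.3 FPKM to 8.12, 8.197 and 8.60 FPKM, a change of -1.31 ± 0.13 (adjusted p = 0.000718) that was past the threshold in every alternative. FARSB in PANC1 fell from 11.4, 10.5 and 10.8 FPKM to 6.13, 6.47 and 5.66 FPKM (log2 fold change -0.83 ± 0.06, adjusted p = 1.25e-06). FARSB in PATU8988T measured 4.84, 5.22 and 4.57 FPKM and 4.98, 4.61 and 4.81 FPKM, and the groups overlapped (log2 fold change -0.02 ± 0.07, adjusted p = 0.832). FARSA, its partner in the enzyme, fell in MIA PaCa-2 (-0.56 ± 0.17) and had values of 0.05 in PANC1 and 0.11 in PATU8988T. The FARSA controls in MIA PaCa-2 measured 96.9, 147 and 96.6 FPKM, and without control replicate 2 its change there was -0.36. The FARSB effect in MIA PaCa-2 differed from that in PATU8988T by -1.29 ± 0.14 (adjusted p = 1.15e-06), the only difference between lines above 2-fold among the members.

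RARS1, arginyl-tRNA synthetase, fell in MIA PaCa-2 from 91.2, 66.3 and 92.1 FPKM to 45.9, 46.6 and 44.0 FPKM, a change of -0.85 ± 0.14 (adjusted p = 0.00369). Without control replicate 2, the lowest of its controls, the change was -1.01 and past the threshold. RARS1 also fell in PANC1 (-0.17 ± 0.03) and had a change of 0.06 ± 0.05 in PATU8988T. VARS1, valyl-tRNA synthetase, fell in PANC1 from 51.3, 55.4 and 55.1 FPKM to 37.2, 38.2 and 38.5 FPKM (log2 fold change -0.50 ± 0.04, adjusted p = 8.72e-07). Its MIA PaCa-2 controls measured 38.6, 58.2 and 38.4 FPKM, and it passed in the higher direction there when control replicate 2 was left out.

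HARS1, histidyl-tRNA synthetase, measured 84.1, 95.4 and 84.8 FPKM in the MIA PaCa-2 controls and 58.3, 58.6 and 58.8 FPKM with knockdown, and it fell (log2 fold change -0.59 ± 0.07, adjusted p = 0.00153). HARS1 in PATU8988T rose from 60.1, 59.9 and 61.1 FPKM to 69.4, 70.2 and 72.4 FPKM (log2 fold change 0.23 ± 0.03, adjusted p = 0.000938). HARS1 in PANC1 read 60.5, 57.2 and 59.6 FPKM and 60.6, 59.6 and 60.2 FPKM (log2 fold change 0.03 ± 0.03, adjusted p = 0.440). The fall in MIA PaCa-2 and the rise in PATU8988T were called in every alternative, and the effects differed by -0.81 ± 0.06 (adjusted p = 5.18e-08). HARS1 and HARS2 are close paralogs and neighbours on chromosome 5, so reads that fit both could be split between them.

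KARS1, the lysyl-tRNA synthetase of both compartments, measured 148, 128 and 141 FPKM in the MIA PaCa-2 controls and 117, 119 and 118 FPKM with knockdown (log2 fold change -0.23 ± 0.07, adjusted p = 0.0399), a fall that was not called under either other scaling. The fall was also lost without a filter, without the variance trend and with the replicate block, and was called in 4 of 14 alternatives. KARS1 in PATU8988T rose from 84.8, 84.1 and 83.8 FPKM to 92.0, 92.4 and 92.6 FPKM (log2 fold change 0.13 ± 0.03, adjusted p = 0.00897), which quantile scaling did not call. KARS1 in PANC1 read 73.5, 72.9 and 71.9 FPKM and 73.2, 74.7 and 71.2 FPKM, with groups that overlapped (log2 fold change 0.01 ± 0.03, adjusted p = 0.867).

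QARS1, glutaminyl-tRNA synthetase, fell in PANC1 from 66.9, 66.3 and 65.5 FPKM to 58.7, 59.5 and 62.6 FPKM (log2 fold change -0.14 ± 0.03, adjusted p = 0.00261). QARS1 in MIA PaCa-2 rose from 48.7, 62.4 and 48.5 FPKM to 69.0, 69.9 and 71.3 FPKM (log2 fold change 0.41 ± 0.11, adjusted p = 0.0262), with control replicate 2 closest to the knockdown libraries. QARS1 in PATU8988T measured 85.5, 81.7 and 85.4 FPKM and 79.5, 91.2 and 87.9 FPKM, and the groups overlapped (log2 fold change 0.03 ± 0.05, adjusted p = 0.654). It was the only cytosolic member outside the ATF4 list that rose in MIA PaCa-2 with all libraries kept.

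The multi-tRNA synthetase complex drew members from both sides. Of 7 synthetase genes in it (EPRS1, IARS1, KARS1, LARS1, MARS1, QARS1, RARS1), 4 rose and 2 fell in PANC1, 4 rose and 2 fell in MIA PaCa-2, and 3 rose and 0 fell in PATU8988T, with medians of 0.27, 0.41 and 0.060. The PANC1 shares of 57.1% risen and 28.6% fallen stood beside 40.1% and 32.2% of all genes. Of all genes 18.7% rose and 21.7% fell in MIA PaCa-2, and 20.9% and 18.5% did so in PATU8988T. Without control replicate 2, 5 of the 7 rose and 2 fell in MIA PaCa-2. The 12 cytosolic members outside the complex had medians of 0.09, 0.14 and 0.21, and of these 6 rose and 4 fell in PANC1, 6 rose and 4 fell in MIA PaCa-2, and 9 rose and 0 fell in PATU8988T. In MIA PaCa-2 it was 7 and 5 without control replicate 2. AIMP2, a scaffold of the complex, rose in PANC1 (0.19 ± 0.05) and PATU8988T (0.28 ± 0.04) and fell in MIA PaCa-2 (-0.37 ± 0.07). EEF1E1, also called AIMP3, fell in PANC1 (-0.29 ± 0.05) and rose in PATU8988T (0.44 ± 0.10), with a value of -0.53 ± 0.28 in MIA PaCa-2. AIMP1 had values of -0.09, -0.25 and 0.09 and passed in none of the lines with all libraries kept. Without control replicate 2 all 3 scaffold genes fell in MIA PaCa-2, where 4302 of 10758 genes then fell and 3780 rose.

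Synthetases fall into 2 structural classes by the fold of the catalytic domain. EPRS1, which charges both glutamate and proline, was counted in class I only. Among the 10 cytosolic class I genes 7 rose and 3 fell in PANC1, 7 rose and 1 fell in MIA PaCa-2, and 5 rose and 0 fell in PATU8988T, with medians of 0.29, 0.43 and 0.13. Among 9 of class II the counts were 3 and 3, 3 and 5, and 7 and 0, with medians of 0.026, -0.26 and 0.18. Of all genes 40.1%, 18.7% and 20.9% rose in the 3 lines and 32.2%, 21.7% and 18.5% fell. In PANC1 the class II shares of 33.3% risen and 33.3% fallen were near those of all genes. The MIA PaCa-2 counts were 9 and 1 for class I and 3 and 6 for class II without control replicate 2, beside 3780 and 4302 of 10758 genes. FARSB, HARS1 and TARS1 belong to class II, as does GARS1.

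The log2 fold changes of the mitochondrial synthetases lay between -0.62 and 0.49 over the 3 lines, beside -1.31 to 1.01 for the cytosolic ones, and no mitochondrial member was past the threshold. None rose in all 3 lines and none fell in all 3. A total of 4 (FARS2, HARS2, TARS2, VARS2) passed in no line. MARS2, NARS2 and WARS2 rose in PANC1 and PATU8988T, and AARS2 and PARS2 fell in PANC1 and MIA PaCa-2.

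In PANC1 the rises were led by MARS2, WARS2 and RARS2. MARS2, mitochondrial methionyl-tRNA synthetase, measured 3.53, 3.46 and 4.01 FPKM in the controls and 6.03, 4.78 and 4.81 FPKM with knockdown (log2 fold change 0.49 ± 0.10, adjusted p = 0.00154). WARS2, for tryptophan, went from 2.28, 2.45 and 2.18 FPKM to 3.42, 2.94 and 3.09 FPKM (log2 fold change 0.43 ± 0.09, adjusted p = 0.00187). RARS2, for arginine, went from 10.5, 11.02 and 9.97 FPKM to 13.7, 13.5 and 14.1 FPKM (log2 fold change 0.39 ± 0.05, adjusted p = 6.57e-05). The groups did not overlap in any of these, and MARS2 and WARS2 each had replicate 1 as their highest knockdown library.

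AARS2 and PARS2 fell in PANC1 and MIA PaCa-2. PARS2, the mitochondrial prolyl-tRNA synthetase, measured 3.96, 3.55 and 4.02 FPKM in the PANC1 controls and 2.59, 2.52 and 3.03 FPKM with knockdown (log2 fold change -0.49 ± 0.10, adjusted p = 0.00101). PARS2 in MIA PaCa-2 went from 4.78, 5.91 and 4.63 FPKM to 3.36, 2.97 and 3.49 FPKM (log2 fold change -0.62 ± 0.13, adjusted p = 0.0111). AARS2, for alanine, went from 4.49, 4.97 and 3.57 FPKM to 2.99, 3.42 and 3.15 FPKM in PANC1 (log2 fold change -0.42 ± 0.12, adjusted p = 0.00783). Its values in MIA PaCa-2 were 4.16, 6.22 and 4.38 FPKM and 3.03, 3.47 and 3.02 FPKM (log2 fold change -0.60 ± 0.17, adjusted p = 0.0324), with control replicate 2 the highest. The groups were separate in these 4 comparisons, while in PATU8988T the changes were -0.18 ± 0.13 and -0.19 ± 0.09 and did not pass. IARS2 fell in PANC1 from 63.8, 64.0 and 66.9 FPKM to 51.8, 51.0 and 51.4 FPKM (log2 fold change -0.33 ± 0.03, adjusted p = 3.28e-06), and SARS2 fell there by 0.27 on the log2 scale.

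LARS2, mitochondrial leucyl-tRNA synthetase, fell in MIA PaCa-2 from 8.204, 10.4 and 8.64 FPKM to 5.81, 5.91 and 5.88 FPKM (log2 fold change -0.62 ± 0.11, adjusted p = 0.00663). LARS2 in PATU8988T rose from 9.01, 9.67 and 9.94 FPKM to 10.7, 10.6 and 10.8 FPKM (log2 fold change 0.17 ± 0.05, adjusted p = 0.0293), a call that median-of-ratios scaling did not make. LARS2 in PANC1 read 7.29, 7.43 and 7.45 FPKM and 7.18, 7.25 and 7.24 FPKM (log2 fold change -0.03 ± 0.05, adjusted p = 0.568). The fall in MIA PaCa-2 was called in every alternative, and its effect differed from that in PATU8988T by -0.78 ± 0.10 (adjusted p = 1.19e-05).

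YARS2, for tyrosine, fell in MIA PaCa-2 from 37.2, 42.4 and 37.1 FPKM to 30.6, 33.4 and 33.2 FPKM (log2 fold change -0.26 ± 0.09, adjusted p = 0.0492), a call that neither other scaling made. This fall was called in 4 of 14 alternatives. YARS2 in PATU8988T rose from 24.4, 24.6 and 25.7 FPKM to 29.5, 30.4 and 30.3 FPKM (log2 fold change 0.27 ± 0.04, adjusted p = 0.000784), and this was called in every alternative. YARS2 in PANC1 read 15.7, 16.3 and 13.5 FPKM and 17.9, 15.8 and 17.9 FPKM (log2 fold change 0.18 ± 0.07, adjusted p = 0.0502), just short of the test. Of the 14 mitochondrial members with a window, its window alone held the looser form TGATGNAA, and none held the stricter one.

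EARS2, which charges the mitochondrial glutamate and glutamine tRNAs, rose in PANC1 from 11.9, 11.7 and 11.1 FPKM to 14.3, 13.8 and 14.7 FPKM (log2 fold change 0.30 ± 0.05, adjusted p = 0.000226). EARS2 in MIA PaCa-2 fell from 7.69, 7.74 and 8.32 FPKM to 6.49, 6.44 and 6.45 FPKM (log2 fold change -0.29 ± 0.09, adjusted p = 0.0363), a call lost under median-of-ratios scaling. EARS2 in PATU8988T measured 5.40, 5.27 and 5.45 FPKM and 5.69, 5.76 and 5.47 FPKM (log2 fold change 0.07 ± 0.06, adjusted p = 0.347). The PANC1 and MIA PaCa-2 effects differed by 0.59 ± 0.08 (adjusted p = 1.90e-05).

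NARS2, for asparagine, had its rise in PATU8988T from 12.1, 12.7 and 11.6 FPKM to 14.9, 14.4 and 13.9 FPKM (log2 fold change 0.25 ± 0.05, adjusted p = 0.00475). MARS2 went there from 3.08, 2.74 and 3.02 FPKM to 3.35, 3.79 and 3.33 FPKM (log2 fold change 0.23 ± 0.08, adjusted p = 0.0466), a call that was lost when any 1 of the 6 libraries was left out. The smallest mitochondrial rises that passed in PATU8988T were those of CARS2, LARS2 and WARS2. CARS2, for cysteine, went from 14.7, 14.0 and 15.1 FPKM to 15.4, 16.8 and 16.4 FPKM (log2 fold change 0.15 ± 0.05, adjusted p = 0.0392), and WARS2 from 3.91, 4.03 and 3.77 FPKM to 4.49, 4.35 and 4.51 FPKM (log2 fold change 0.19 ± 0.06, adjusted p = 0.0381). Neither of them was called under median-of-ratios scaling, without a filter or with the replicate block. CARS2 was called there in 5 of 14 alternatives and WARS2 in 5 of 13.

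Set against its counterpart for the same amino acid, the cytosolic gene had the higher log2 fold change for 7 (PANC1), 8 (MIA PaCa-2) and 11 (PATU8988T) of 13 amino acids. Phenylalanine, whose cytosolic enzyme has 2 genes, was not among the 13. Its mitochondrial gene FARS2 had values of 0.11, -0.37 and 0.06 and passed in no line. These were above FARSB in each line, above FARSA in PANC1 and MIA PaCa-2, and below FARSA in PATU8988T. Pairs whose members both passed in opposite directions were found in PANC1 and MIA PaCa-2. The cytosolic gene rose and the mitochondrial gene fell for alanine in both lines, with AARS1 up by 0.30 and 0.84. The same held in PANC1 for isoleucine (IARS1 0.52, IARS2 -0.33) and serine (SARS1 0.35, SARS2 -0.27). It held in MIA PaCa-2 for leucine (LARS1 0.62, LARS2 -0.62) and tyrosine (YARS1 0.45, YARS2 -0.26). In MIA PaCa-2 the LARS2 fall was called in 14 of 14 alternatives, the AARS2 fall in 9 of 13 and the YARS2 fall in 4 of 14. The order was the reverse in PANC1 for arginine (RARS1 -0.17, RARS2 0.39) and asparagine (NARS1 -0.21, NARS2 0.28). In PATU8988T the threonine pair split, with TARS1 at 0.25 and TARS2 at -0.12, though TARS2 did not pass.

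**Figure D4:**
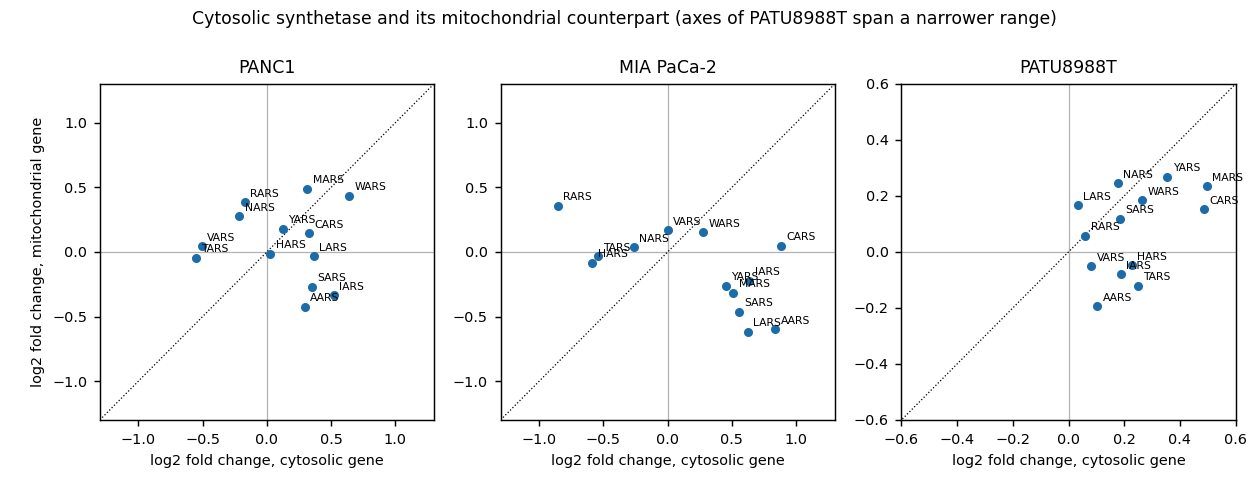
Log2 fold change of the cytosolic gene (horizontal) and of its mitochondrial counterpart (vertical) for 13 amino acids with a single gene in each compartment (phenylalanine not shown), by line; the dotted line marks equal changes and each label is the shared start of both symbols. In MIA PaCa-2 the AARS and LARS points lie at lower right (cytosolic higher, mitochondrial lower) and the RARS point at upper left, and the PATU8988T points lie within 0.6 of 0, on axes that span a narrower range.

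Whether the knockdown effect differed between lines was tested with an interaction term over all 18 libraries and 9083 genes. At an adjusted p below 0.05, the effects of 14 cytosolic and 5 mitochondrial members differed between PANC1 and MIA PaCa-2, where 43.4% of all genes did. Between PANC1 and PATU8988T it was 11 and 1 (35.8% of genes), and between MIA PaCa-2 and PATU8988T 15 and 6 (52.9% of genes). A difference that was also above 2-fold was found for 0, 0 and 1 members, against 4.45%, 4.32% and 8.48% of genes. RARS1 came close to a 2-fold difference between MIA PaCa-2 and PATU8988T, at -0.91 ± 0.13 (adjusted p = 2.10e-05). AARS1 and CARS1 rose more in MIA PaCa-2 than in PANC1, by a further 0.54 and 0.55 on the log2 scale. 

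As a description across genes, the changes of the 19 cytosolic members in PANC1 and MIA PaCa-2 had a Pearson r of 0.78, and each of these lines had r of 0.43 and 0.44 with PATU8988T. For the 16 mitochondrial members r was 0.60 between PANC1 and MIA PaCa-2, 0.73 between PANC1 and PATU8988T and 0.20 between MIA PaCa-2 and PATU8988T. The points of a line share its libraries, and genes are not independent replicates.

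ATF4 itself rose in all 3 lines. ATF4 in PANC1 measured 64.5, 64.7 and 63.7 FPKM in controls and 88.4, 87.5 and 89.4 FPKM with knockdown (log2 fold change 0.46 ± 0.02, adjusted p = 8.82e-08). ATF4 in MIA PaCa-2 went from 27.1, 31.0 and 27.4 FPKM to 50.1, 49.9 and 51.2 FPKM (log2 fold change 0.82 ± 0.08, adjusted p = 0.000629), and ATF4 in PATU8988T from 35.2, 35.3 and 35.8 FPKM to 44.6, 45.9 and 43.9 FPKM (log2 fold change 0.34 ± 0.04, adjusted p = 0.000119). Each knockdown library was above each control. Of the other listed genes of the ATF4 pathway together with ATF4, 19 of 26 tested rose and 4 fell in PANC1, 18 of 24 and 1 in MIA PaCa-2, and 16 of 23 and 1 in PATU8988T, with medians of 0.39, 0.77 and 0.42. Of all genes, 40.1%, 18.7% and 20.9% rose and 32.2%, 21.7% and 18.5% fell. In MIA PaCa-2, 21 of the list rose and 1 fell without control replicate 2. SLC7A11, a cystine transporter, fell in PANC1 from 7.84, 7.57 and 7.68 FPKM to 2.503, 2.21 and 2.27 FPKM (log2 fold change -1.69 ± 0.07, adjusted p = 1.82e-08), past the threshold. The other genes of the list that fell were PSPH, a phosphatase of serine synthesis, in PANC1 (-0.53 ± 0.07) and MIA PaCa-2 (-0.25 ± 0.07), the amino acid transporter subunits SLC3A2 (-0.10 ± 0.03) and SLC7A5 (-0.12 ± 0.02) in PANC1, and VLDLR, a lipoprotein receptor, in PATU8988T (-0.51 ± 0.06).

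CHAC1, a glutathione-degrading enzyme, rose in each line (1.20 ± 0.05, 1.44 ± 0.13 and 2.76 ± 0.09). TRIB3, a pseudokinase of the same response, rose in PANC1 (1.03 ± 0.04) and MIA PaCa-2 (1.80 ± 0.17) and had a value of -0.08 ± 0.05 in PATU8988T. ASNS, asparagine synthetase, rose in PANC1 (0.44 ± 0.03) and MIA PaCa-2 (1.96 ± 0.18). SESN2, a stress-induced inhibitor of mTORC1, was among the 3 smallest p-values of the list in PANC1 (1.23 ± 0.04) and MIA PaCa-2 (2.15 ± 0.13), CTH and ATF3 were in MIA PaCa-2 (2.17 ± 0.11 and 2.38 ± 0.14), and DDIT3 and ATF3 were in PATU8988T (0.84 ± 0.04 and 1.19 ± 0.06). The change of CHAC1 was larger in size than that of any synthetase in each of the 3 lines. ASNS was not tested in PATU8988T, where its mean was under 1 FPKM.

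The eIF2 kinases, eIF2 subunits and eIF2B subunits, counted together with GCN1, were mixed. Of 13 genes, 4 rose and 3 fell in PANC1, 1 rose and 5 fell in MIA PaCa-2, and 6 rose and 0 fell in PATU8988T, with medians of -0.01, -0.12 and 0.11. The MIA PaCa-2 counts became 4 risen and 7 fallen without control replicate 2, beside 3780 and 4302 of 10758 genes. The PANC1 shares of 30.8% and 23.1% were both below the 40.1% and 32.2% of all genes. With all libraries kept, the MIA PaCa-2 shares were 7.7% and 38.5%, against 18.7% and 21.7% of all genes. Those of PATU8988T were 46.2% and 0%, against 20.9% and 18.5%. EIF2AK4 (GCN2), the kinase that senses uncharged tRNA, rose in each line and in PANC1 by 0.47 on the log2 scale. EIF2AK3 (PERK) fell in PANC1 (-0.71 ± 0.06). EIF2S1, the subunit that is phosphorylated, fell in PANC1 (-0.36) and MIA PaCa-2 (-0.44) and rose in PATU8988T (0.26). EIF2B3 and EIF2B5 fell in MIA PaCa-2 (-0.36 and -0.42), and EIF2S2 and EIF2B5 rose in PATU8988T (0.34 and 0.28).

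More of the cytosolic elongation and termination factors, which act after the charged tRNA is made, rose than fell. Of 8 such genes, 6 rose and 1 fell in PANC1, 4 rose and 1 fell in MIA PaCa-2, and 4 rose and 0 fell in PATU8988T, with medians of 0.45, 0.32 and 0.12. Of all genes 40.1%, 18.7% and 20.9% rose and 32.2%, 21.7% and 18.5% fell in these lines. Leaving out control replicate 2 gave 5 risen and 3 fallen in MIA PaCa-2. EEF1A1, which brings aminoacyl-tRNA to the ribosome, rose in PANC1 (0.84 ± 0.01) and MIA PaCa-2 (0.43 ± 0.06). EEF1G rose in both as well (0.59 and 0.61), as did EEF2 in PANC1 (0.50) and EEF1B2 in MIA PaCa-2 (0.49). In PATU8988T the leading genes were ETF1 (0.32), EEF1B2 (0.15) and GSPT1 (0.14). EIF5A was the gene that fell in PANC1 and, with all libraries kept, in MIA PaCa-2.

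Mitochondrial translation factors were mixed, with 5 of 11 risen and 3 fallen in PANC1, 0 of 10 and 3 in MIA PaCa-2, and 2 of 11 and 0 in PATU8988T, and medians of 0.05, -0.19 and 0.10. The PANC1 shares of 45.5% and 27.3% were near the 40.1% and 32.2% of all genes. Of all genes 18.7% rose and 21.7% fell in MIA PaCa-2, and 20.9% and 18.5% did so in PATU8988T. In MIA PaCa-2 1 factor rose and 6 fell without control replicate 2, beside 3780 and 4302 of 10758 genes. GFM1, an elongation factor, rose in PANC1 (0.50) and PATU8988T (0.41), and TUFM rose in PATU8988T (0.15). GFM2, a ribosome recycling factor, fell in PANC1 (-0.61) and MIA PaCa-2 (-0.54) and was at 0.11 in PATU8988T. MTIF3 rose in PANC1 (0.38), while TSFM and MTIF2 fell in MIA PaCa-2 (-0.54 and -0.47).

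Genes close to the synthetases in function but outside the symbol rule were also read. Of 6 tested in each line, 3 rose and 1 fell in PANC1, 0 rose and 1 fell in MIA PaCa-2, and 2 rose and 0 fell in PATU8988T, with medians of 0.29, 0.00 and 0.15, where 40.1%, 18.7% and 20.9% of all genes rose and 32.2%, 21.7% and 18.5% fell. In MIA PaCa-2, 1 rose and 3 fell without control replicate 2. QRSL1 and GATB, of the amidotransferase that makes mitochondrial Gln-tRNA, rose in PANC1 (0.47 and 0.40), and QRSL1 and its partner GATC rose in PATU8988T (0.17 and 0.25). GATB had a value of 0.18 in MIA PaCa-2. TARS3, a paralog of TARS1, fell in PANC1 (-0.32 ± 0.08) and had values of -0.54 and 0.16 in the other lines. PSTK, which acts on the selenocysteine tRNA, fell in MIA PaCa-2 (-0.85 ± 0.16) and was at 0.14 in PATU8988T.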

How the data were processed

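The authors deposited 1 table of FPKM values for 26668 gene symbols in 18 libraries. Per the study's methods, HISAT2 aligned the NovaSeq reads and HTSeq-count assigned them to genes, and a count model was used for testing. The labels and the methods name different RNA extraction and library kits, the submitters' processing notes name GRCm38, mm10 and hg38, and tool versions, strand settings and the handling of reads with several matches were not given in the sources used here, so overlapping antisense genes and paralogs may share reads.

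Reads per gene were recovered from the steps of the FPKM values and used for depth only. Genes with a mean of at least 1 FPKM in a line were kept, and log2(FPKM + 0.1) was fitted in limma 3.58.1 (R 4.3.3, lmFit and eBayes with a variance trend), so fold changes of low genes are understated. SDs are over 3 libraries. Scripts were tested on simulated data with 200 changed genes. Members past the threshold, the 3 most changed of each class and line, and members that moved in opposite directions between lines were described by library. SLC7A11 and the other listed genes that fell were named after their values were seen. The members, gene lists and rules were chosen with earlier results of these data known. A further 2 genes that fit the rule are not reported here and enter no count, median or sum of members. No column was left out.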

Additional observations from a re-analysis of the deposited data

Results flagged for a closer look

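FARSB, the beta subunit of cytosolic phenylalanyl-tRNA synthetase, met the condition for a difference between lines. Its knockdown effect was -1.31 on the log2 scale in MIA PaCa-2, against -0.02 for PATU8988T. The interaction term in limma over all 18 libraries gave a difference of -1.29 ± 0.14 (adjusted p = 1.15e-06), above 2-fold. All 3 knockdown libraries of MIA PaCa-2 were below its controls, while the groups overlapped in PATU8988T, where the gene measured only 4.84, 5.22 and 4.57 FPKM in the controls.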

How the results depend on the processing

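No synthetase described here that was called in a line changed direction under any alternative tried: pseudocounts of 1 and 0.01, no filter, a filter of 5 FPKM, median-of-ratios and quantile scaling, no variance trend, a replicate block, and leaving out each library.

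In PANC1 the cytosolic median was 0.074 under median-of-ratios and 0.18 under quantile scaling, and the mitochondrial median was 0.025 under median-of-ratios scaling and 0.015 with the filter of 5 FPKM. In MIA PaCa-2 the mitochondrial members with an adjusted p below 0.05 numbered 3 without a filter, 3 with the filter of 5 FPKM and 3 under median-of-ratios scaling. The cytosolic median there was 0.48 under quantile scaling, and the mitochondrial median -0.10 under quantile scaling and -0.15 with the filter of 5 FPKM. In PATU8988T 3 mitochondrial members passed without a filter and 2 under median-of-ratios scaling, and the cytosolic median was 0.14 under quantile scaling. The filter of 5 FPKM left FARSB of PATU8988T untested, so no difference between MIA PaCa-2 and PATU8988T above 2-fold (0 members) remained under it. For the other shifts the cause was not tested.

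Leaving out a library gave 16 to 16 cytosolic and 9 to 10 mitochondrial members with an adjusted p below 0.05 in PANC1, with MIA PaCa-2 at 12 to 19 and 1 to 12, and PATU8988T at 10 to 14 and 2 to 5. The counts past the threshold were 0 to 0, 1 to 2 and 0 to 0 for the cytosolic members and 0 to 0 for the mitochondrial ones. The cytosolic medians ranged from 0.11 to 0.14, 0.22 to 0.35 and 0.15 to 0.18, and the mitochondrial medians from 0.020 to 0.10, -0.26 to -0.20 and 0.064 to 0.11. Members with a difference between lines above 2-fold numbered 0 to 0 for both comparisons with PANC1 and 1 to 2 for MIA PaCa-2 against PATU8988T.

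Whether the replicate numbers pair the samples was not settled. In no line did all 3 same-numbered pairs of deviations from the group means correlate above 0.1 (PANC1 -0.0032, 0.080 and 0.065, MIA PaCa-2 -0.059, -0.11 and -0.038, PATU8988T 0.13, -0.10 and -0.028). Control replicate 3 and knockdown replicate 2 of PATU8988T had r of 0.23. The 3 deviations of a gene within a group depend on each other, so these values cannot exclude a pairing. With the replicate block, 3 mitochondrial members of MIA PaCa-2 passed, as did 3 of PATU8988T, and the calls of 4 members were lost in each of these lines (EARS2, KARS1, WARS1 and YARS2 in MIA PaCa-2, and AARS1, CARS2, MARS2 and WARS2 in PATU8988T) and of 0 in PANC1.

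Depth limited the lowest genes most, since the weakest member had 89 reads in a library. With 3 libraries per group, an exact two-sided permutation test cannot go below p = 0.1, and calls therefore rest on the spread limma shares across genes. Nothing in the labels says that the replicates came from separate cultures, so p-values measure the spread between these libraries. Interaction tests pool the spread of all lines. With a separate spread for each line, an alternative chosen after the data were seen, the members with a difference above 2-fold also numbered 0, 0 and 1.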
